A study of Homo sapiens with 18 samples.

Results

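DNA breakage was set against the loss of MDM2 in SJSA-1 cells, a human osteosarcoma line known for extra copies of the MDM2 gene. The 3 libraries of cells given neocarzinostatin (NCS) were compared with the 3 libraries of cells given the MDM2 degrader MD-224, which together make up 6 of the 18 libraries of the series. The libraries were chosen by their column names alone, and every gene in the deposited table was kept: 3074 genes were listed and 3073 passed the filter on low values. The NCS cells had NCS at 1 µg/mL for 72 h, renewed after 48 h, with DMSO as the second agent for the last 24 h. The MD-224 cells had DMSO for 72 h and MD-224 at 1 µM for the last 24 h. Cells given DMSO throughout, again with 3 libraries, are the vehicle control. The other groups, of 3 libraries each, had the MDM2 inhibitor MI-1061 alone, or NCS followed by MD-224 or by MI-1061, and the treatment text spells that inhibitor MI-1016. Agent, dose and exposure time change together between NCS and MD-224, so their shares in any difference cannot be told apart. All cells were of 1 line, and no label says whether the replicates were separate cultures, so p-values measure only the spread between these libraries.

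The transcription factor p53 is kept low by MDM2, a ubiquitin ligase that marks it for destruction, and p53 in turn switches on the MDM2 gene, which closes a feedback loop. NCS is an enediyne that cuts DNA strands, and breaks activate kinases that loosen the hold of MDM2 on p53, while the same breaks can also activate NF-kB. MD-224 is a bifunctional molecule that joins an MDM2 binder to a ligand of the ubiquitin ligase subunit cereblon, so that MDM2 itself is degraded without any need for DNA damage. The comparison sets p53 release with broken DNA beside p53 release without it. Neither breaks nor MDM2 protein were measured here.

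Poly(A)-enriched RNA was sequenced, and the values are normalised read counts, that is, reads per gene divided by a size factor for each library. Over the listed genes they summed to 6695340 to 6919280 in the NCS libraries, 6784130 to 6929260 in the MD-224 libraries and 4594460 to 4940720 in the DMSO libraries. The reads behind them, recovered from the steps in the values, numbered 6875366 to 11413621 with NCS, 6039270 to 10535849 with MD-224 and 4490870 to 4834150 with DMSO. MDM2 alone took 2.63% to 2.73% of the normalised counts with NCS, 5.39% to 7.09% with MD-224 and 2.32% to 3.53% with DMSO. The table is a selection: the lowest ratio of any listed gene between cells given NCS plus MI-1061 and vehicle was 1.75. Neither compared group shows such a floor (lowest ratios to DMSO 0.371 for NCS and 0.0873 for MD-224). The group with the floor had NCS as an agent, however, so the selection need not be neutral between NCS and MD-224. Its part in the counts of higher and lower genes was not tested, and genes outside the selection were not analysed here. Of 11 osteoblast markers 3 were listed, SPP1, COL1A2 and SPARC, and they summed to at least 70302 normalised counts in every DMSO, NCS and MD-224 library. The other 8 were not among the listed genes, which in a selected table says nothing of their level.

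NCS left 388 genes higher than MD-224 did and 104 genes lower, at an adjusted p under 0.05 in limma with Benjamini-Hochberg adjustment over all tested genes. These are 12.6% and 3.38% of the 3073 tested genes. The genes higher with NCS were mostly of low level and strongly different: their median was 220 normalised counts, and 270 of the 388 differed at least 2-fold. The genes lower with NCS were abundant and differed less, with a median level of 2490 normalised counts and 17 of 104 at least 2-fold apart. Among the 769 genes with the fewest counts 99 were higher and 2 lower with NCS, and among the 768 with the most counts 56 were higher and 55 lower. These levels are counts and not per length. The median log2 difference over all tested genes was 0.13, and TMM scaling, which recentres the libraries, brought it to 0.01 and gave 301 higher and 227 lower genes (9.79% and 7.39%). The share of calls on the higher side was thus 78.9% with the deposited scaling and 57.0% with TMM. With median-ratio scaling, which also recentres, it was 50.6%. All 104 lower genes stayed lower under both rescalings. Libraries with the same replicate number deviated together, and with that number as a block the counts were 589 higher and 190 lower (19.2% and 6.18%), among them every gene called without it.

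**Figure D1:**
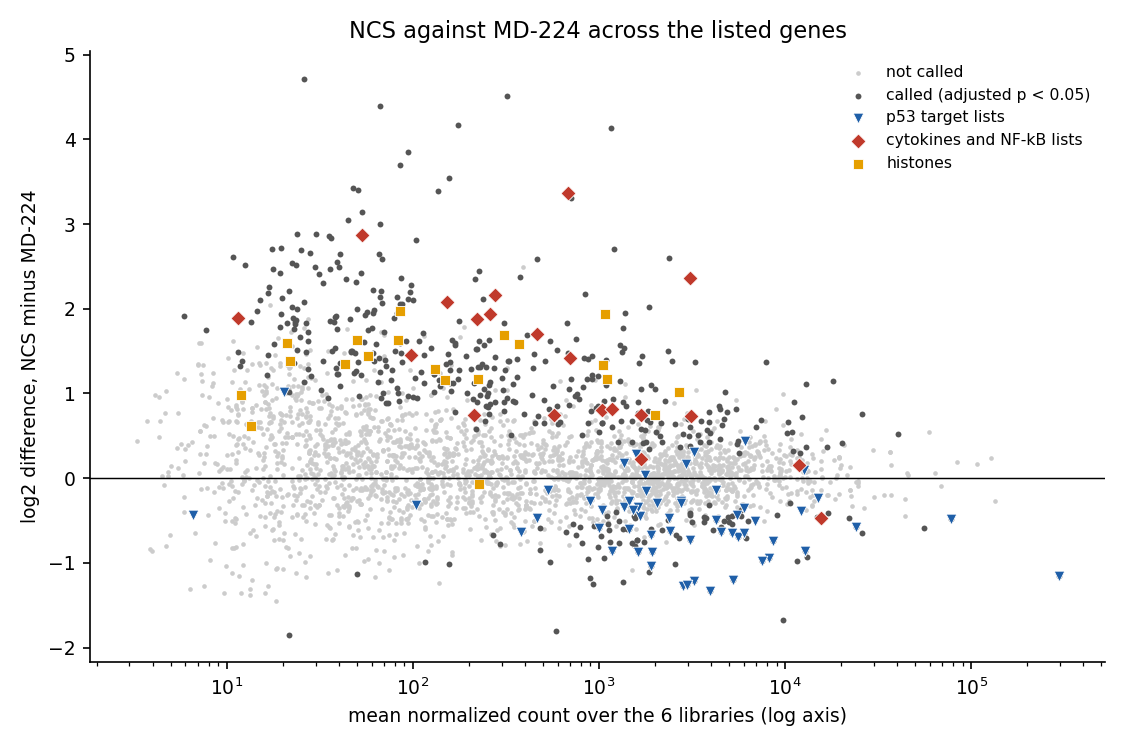
Log2 difference, NCS minus MD-224, against the mean normalised count over the 6 libraries (log axis), 1 point per tested gene. Dark points are called at an adjusted p under 0.05, and p53 target lists, cytokine and NF-kB lists and histones have their own markers. The points for the p53 lists lie mostly below 0 at high counts, and those for cytokines and histones mostly above 0.

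MDM2 took more counts than any other listed gene, and its RNA was higher in cells given the degrader of its protein than in cells given NCS. The gene lies at chr12:68808172-68850686 (RefSeq, GRCh38.p14). MDM2 had 177192, 180870 and 188863 normalised counts in the NCS libraries, 375912, 481272 and 366311 in the MD-224 libraries, and 114681, 163950 and 126598 in the DMSO libraries. Every NCS library was below every MD-224 library and above every DMSO library. The log2 difference, NCS minus MD-224, was -1.15 (SE 0.17, adjusted p 0.000263), a level 0.450 times that with MD-224. Against DMSO it was 1.37-fold higher with NCS (adjusted p 0.031) and 3.03-fold higher with MD-224 (adjusted p 2.4e-06).

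CDKN1A encodes p21, the inhibitor of cyclin-dependent kinases through which p53 stops the cell cycle. It had 69416, 58896 and 65384 normalised counts with NCS, 104006, 83659 and 84506 with MD-224, and 13252, 12142 and 10129 with DMSO. Both treatments stood far above vehicle, and every NCS library was below every MD-224 library. The log2 difference between the treatments was -0.49 (SE 0.16, adjusted p 0.041). This call was lost when any 1 of the 6 libraries was left out, with adjusted p between 0.0516 and 0.141, while the difference stayed between -0.54 and -0.38.

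Many p53 target genes were lower with NCS than with MD-224. Most were called above vehicle with either agent, but so were most tested genes with NCS. Of 66 genes on 5 lists of p53 targets 57 were measured, and 27 of them were lower and 0 higher with NCS. Their median log2 difference was -0.47, against 0.13 over all tested genes. Against DMSO 34 of the 57 were higher and 1 lower with NCS, and 42 were higher and 2 lower with MD-224, where 54.0% of all tested genes were higher and 1.30% lower with NCS, and 39.9% higher and 2.80% lower with MD-224. Both of these comparisons use the same DMSO libraries. Leaving out 1 of the 6 libraries gave 20 to 27 lower members and 0 higher ones, TMM scaling gave 31, and dropping replicate 3 from every group gave 11.

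Among the arrest genes 3 of 10 were lower with NCS: CDKN1A, BTG2 and FBXW7. BTG2 alone was called without NCS replicate 2, NCS replicate 3 or MD-224 replicate 2. BTG2, an antiproliferative regulator of mRNA decay and transcription, had 1866, 2097 and 1824 normalised counts with NCS, 3867, 5594 and 4090 with MD-224 and 597, 798 and 764 with DMSO. NCS libraries lay between the MD-224 and DMSO libraries without overlap, and the log2 difference from MD-224 was -1.21 (SE 0.21, adjusted p 0.00109). FBXW7, the substrate-binding part of a ubiquitin ligase for cyclin E, had a smaller log2 difference of -0.59 (adjusted p 0.0217). Its adjusted p passed 0.05 without NCS replicate 2 (0.0761), NCS replicate 3 (0.0605) or MD-224 replicate 2 (0.0645). PLK2, a polo-like kinase, had 13520 to 14348 normalised counts with NCS and 15250 to 17440 with MD-224, and its log2 difference of -0.23 did not pass (adjusted p 0.103). With TMM scaling it was -0.35 and passed (adjusted p 0.018).

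The genes of cell death had 9 of 16 members lower with NCS and 0 higher. BAX, the pore-forming protein of the mitochondrial outer membrane, had 5316, 6067 and 5481 normalised counts with NCS, 9947, 11661 and 10807 with MD-224 and 5037, 5445 and 5166 with DMSO. The NCS and DMSO libraries overlapped, and the MD-224 libraries stood apart from both. The log2 difference from MD-224 was -0.94 (SE 0.11, adjusted p 7.61e-05), and that between NCS and DMSO was 0.11 (95% interval -0.13 to 0.35, adjusted p 0.44). TRIAP1, a small p53-induced inhibitor of apoptosis, showed a like order, with 1294, 1525 and 1302 normalised counts with NCS, 2445, 2636 and 2423 with MD-224 and 1118, 1096 and 1171 with DMSO. TP53I3, a quinone oxidoreductase induced by p53, had 1593, 1894 and 1667 normalised counts with NCS and 3522, 5496 and 3574 with MD-224. FAS, the death receptor for FAS ligand, had 1612, 1395 and 1416 with NCS, 2520, 2270 and 2233 with MD-224 and 995, 954 and 883 with DMSO. For these 3 genes too no NCS library reached the lowest MD-224 library.

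**Figure D2:**
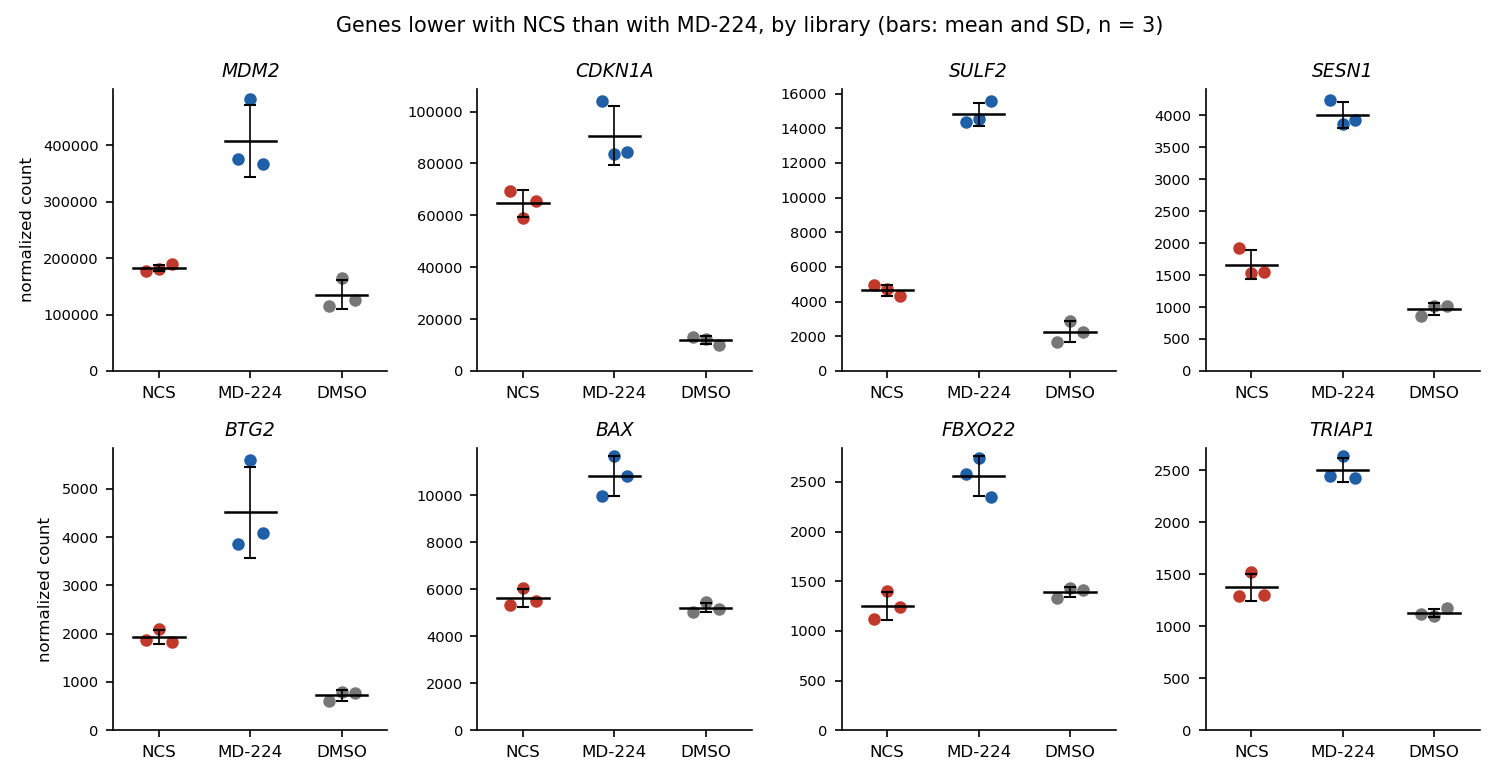
Normalised counts by library (linear axes from 0) in the NCS, MD-224 and DMSO groups for 8 genes lower with NCS than with MD-224. Points are libraries, and bars are the mean and SD of 3. For BAX, FBXO22 and TRIAP1 the NCS points sit near the DMSO points, and for CDKN1A, SULF2 and BTG2 they sit clearly above them.

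DNA repair and nucleotide supply genes followed, with 3 of 5 lower with NCS. RRM2B, the p53-induced small subunit of ribonucleotide reductase, had 4384, 4186 and 4265 normalised counts with NCS, 8040, 6342 and 6483 with MD-224 and 2730, 2811 and 3075 with DMSO. DDB2, which recognises ultraviolet lesions in DNA, had 1865, 1995 and 1811 with NCS, 2637, 3315 and 2840 with MD-224 and 1606, 1633 and 1739 with DMSO. XPC, the damage sensor of nucleotide excision repair, had a log2 difference of -0.64 (SE 0.17, adjusted p 0.0133). For all 3 genes every NCS library was below every MD-224 library. The call for XPC was lost without NCS replicate 1 (adjusted p 0.0624) or MD-224 replicate 2 (0.0574).

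Of the p53 targets in metabolism and redox control 6 of 13 were lower with NCS. FDXR, the reductase that passes electrons to ferredoxin in mitochondria, had 2027, 2418 and 2191 normalised counts with NCS, 4941, 7109 and 4887 with MD-224 and 972, 1482 and 1211 with DMSO. SESN1, a sestrin that restrains mTORC1, had 1919, 1526 and 1550 with NCS, 3860 to 4244 with MD-224 and 858 to 1023 with DMSO. The 3 groups did not overlap for either gene, and the log2 differences of NCS from MD-224 were -1.33 (SE 0.23, adjusted p 0.00109) for FDXR and -1.27 (SE 0.17, adjusted p 0.000118) for SESN1. TIGAR, a fructose bisphosphatase that lowers glycolysis, had 3450 to 3583 normalised counts with NCS, 5066 to 5847 with MD-224 and 1755 to 2459 with DMSO. CMBL, a hydrolase that activates an ester prodrug, had 1108, 1239 and 1086 with NCS, 2295, 2061 and 1912 with MD-224 and 823, 975 and 896 with DMSO.

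The list of feedback genes and of genes for RNA or protein control had 6 of 13 members lower with NCS, MDM2 among them. FBXO22, an F-box protein of a ubiquitin ligase, had 1119, 1399 and 1241 normalised counts with NCS, 2583, 2745 and 2353 with MD-224 and 1333, 1434 and 1410 with DMSO. The NCS libraries overlapped the DMSO libraries, and the log2 difference from MD-224 was -1.03 (SE 0.13, adjusted p 0.000107). RPS27L, a ribosomal protein paralogue induced by p53, had 6004 to 6699 with NCS, 10243 to 11355 with MD-224 and 4393 to 4936 with DMSO. TRIM22, an antiviral ubiquitin ligase that both interferon and p53 induce, had 4877 to 5386 with NCS, 9359 to 10328 with MD-224 and 2162 to 3275 with DMSO. CYFIP2, a subunit of the WAVE complex that steers actin assembly, had 2766, 3687 and 3076 with NCS and 6506, 9395 and 6237 with MD-224. For each of these genes the highest NCS library was below the lowest MD-224 library.

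Large falls also came in genes that are not on the p53 lists, and whether p53 acts on those genes was not tested. PTCHD4, a patched-domain membrane protein, had 267, 278 and 241 normalised counts with NCS, 928, 938 and 879 with MD-224 and 74.4, 168 and 80.8 with DMSO. Its log2 difference of -1.80 (SE 0.27, adjusted p 0.00029) left it at 0.286 times the MD-224 level. SULF2, a sulphatase that edits heparan sulphate outside the cell, had 4940, 4718 and 4296 with NCS, 14334, 14512 and 15565 with MD-224 and 1676, 2852 and 2265 with DMSO. Its log2 difference was -1.67 (SE 0.21, adjusted p 0.000107), and the NCS libraries lay above all DMSO libraries and below all MD-224 libraries. SLC2A12, a glucose transporter, had 422, 576 and 663 with NCS and 1183 to 1533 with MD-224, a log2 difference of -1.25 (adjusted p 0.0044).

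For some of these genes the difference came with an NCS level at or below vehicle. ACTA2, smooth muscle actin, had 1209, 640 and 648 normalised counts with NCS, 2166, 1811 and 1633 with MD-224 and 1141, 694 and 962 with DMSO. NCS and DMSO libraries overlapped there, with a log2 difference of -0.20 between them (95% interval -0.72 to 0.32). The span of ACTA2 (chr10:88935074-88991337) overlaps that of FAS (chr10:88964050-89017059), which was also lower with NCS. How reads in the shared stretch were counted is not stated. PRKX, a cyclic AMP-dependent kinase with a close copy on the Y chromosome that may share reads with it, had 1142, 1270 and 1108 with NCS, 2200, 2784 and 2605 with MD-224 and 1358, 2195 and 2104 with DMSO. It was lower with NCS than with DMSO too, by a log2 difference of -0.65 (adjusted p 0.0095). ITIH5, a hyaluronan-binding inhibitor chain, had 460 to 665 with NCS, 1147 to 1388 with MD-224 and 140 to 382 with DMSO. Unlike ACTA2 and PRKX, it was above vehicle with NCS, by 2.33-fold (adjusted p 0.00498). Its call against MD-224 was lost without NCS replicate 1, NCS replicate 3 or MD-224 replicate 2, with adjusted p of 0.085, 0.0615 and 0.0601. TYMSOS, an RNA antisense to thymidylate synthase, was also among the largest falls, but the strand of the counting is not stated, so its reads and those of its partner cannot be told apart.

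Cytokine genes were higher with NCS. Of 30 cytokines and chemokines on the list 11 were measured, and 7 were higher with NCS and 0 lower, with a median log2 difference of 1.89. The count was 4 to 8 when 1 library was left out, with 4 without NCS replicate 2 or 3 or MD-224 replicate 1 or 3, and in some fits CSF1, the macrophage growth factor, was called lower, including the block on replicate number (7 higher, 1 lower). Of 9 measured genes of the NF-kB pathway and its feedback 6 were higher and 0 lower, with a median of 0.75. Leaving out 1 library gave 5 to 7 of these. Without replicate 3 of every group 2 of the cytokines and 2 of the NF-kB genes were called higher. Against DMSO 10 of the 11 cytokines were higher with NCS and 6 with MD-224. For the NF-kB genes the counts were 9 of 9 with NCS and 1 of 9 with MD-224. Over all tested genes 54.0% were higher than DMSO with NCS and 39.9% with MD-224.

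Promoters are shown for 4 called genes higher with NCS and for TRIAP1, lower with NCS, because NF-kB, AP-1 and p53 bind short known words that can be read in them. Each runs 5′ to 3′ on the strand of the gene, from 250 bases before the start to 30 after it (50 for TRIAP1), from RefSeq on GRCh38.p14. Capitals mark matches on either strand to GGNNTTTCC (an NF-kB word), TGANTCA (an AP-1 word) or CATGNNNNNNCATG (a pair of p53 core words). No fixed rule chose these genes, and each of them holds a match, so the matches are examples and not a result. The longer stretch for TRIAP1 includes its match, which the shorter one would leave out.
CXCL8 (chr4:73740319-73740598, plus strand): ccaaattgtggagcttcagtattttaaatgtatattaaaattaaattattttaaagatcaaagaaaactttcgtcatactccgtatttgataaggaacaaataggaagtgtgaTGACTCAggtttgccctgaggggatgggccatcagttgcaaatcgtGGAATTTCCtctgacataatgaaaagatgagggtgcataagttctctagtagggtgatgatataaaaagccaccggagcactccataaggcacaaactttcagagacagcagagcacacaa
CXCL1 (chr4:73869143-73869422, plus strand): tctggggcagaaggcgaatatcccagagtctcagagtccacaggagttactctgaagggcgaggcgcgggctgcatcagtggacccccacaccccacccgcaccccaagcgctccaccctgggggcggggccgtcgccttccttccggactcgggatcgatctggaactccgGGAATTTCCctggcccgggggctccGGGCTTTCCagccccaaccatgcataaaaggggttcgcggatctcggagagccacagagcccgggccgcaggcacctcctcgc
IL32 (chr16:3065153-3065432, plus strand): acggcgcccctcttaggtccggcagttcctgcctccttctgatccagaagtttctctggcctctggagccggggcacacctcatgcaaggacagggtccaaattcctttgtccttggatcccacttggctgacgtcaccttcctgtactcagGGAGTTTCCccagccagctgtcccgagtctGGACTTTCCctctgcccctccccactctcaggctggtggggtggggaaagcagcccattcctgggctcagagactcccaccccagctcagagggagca
SERPINB2 (chr18:63887455-63887734, plus strand): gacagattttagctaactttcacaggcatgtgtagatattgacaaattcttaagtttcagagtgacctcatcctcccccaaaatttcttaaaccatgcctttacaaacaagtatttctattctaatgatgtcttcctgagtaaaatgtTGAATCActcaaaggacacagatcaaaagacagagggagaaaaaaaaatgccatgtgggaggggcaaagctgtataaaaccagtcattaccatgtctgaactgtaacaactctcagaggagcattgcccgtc
TRIAP1 (chr12:120446335-120446634, minus strand): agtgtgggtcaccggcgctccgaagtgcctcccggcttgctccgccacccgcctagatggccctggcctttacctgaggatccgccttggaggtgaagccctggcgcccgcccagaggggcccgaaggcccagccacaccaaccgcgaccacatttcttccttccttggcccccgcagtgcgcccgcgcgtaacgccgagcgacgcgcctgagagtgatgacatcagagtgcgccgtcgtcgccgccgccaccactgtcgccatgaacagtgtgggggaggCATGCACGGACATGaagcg

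CXCL8 held the NF-kB word 91 bases before its start and the AP-1 word 137 bases before it. CXCL1 held the NF-kB word at 78 and 53 bases and IL32 at 98 and 68 bases before the start, while SERPINB2 held the AP-1 word at 102 bases. TRIAP1, lower with NCS, held the paired p53 word 32 bases past its start. Over genes with a RefSeq promoter of 300 bases, the NF-kB word was in 25 of 287 higher genes (8.71%), 4 of 85 lower genes (4.71%), 152 of 2274 tested genes (6.68%) and 6.26% of all 27305 promoters. It was in 5 of 10 promoters of the measured cytokines, 4 of 7 of the NF-kB list, 0 of 14 of the protease list and 4 of 45 of the p53 lists (8.89%). The AP-1 word was in 11.8% of the higher genes, 5.88% of the lower genes, 7.30% of tested genes and 7.76% of all promoters. It was in 3 of 10 promoters of the cytokines, 0 of 7 of the NF-kB list, 4 of 14 of the protease list and 6 of 45 of the p53 lists (13.3%), whose called members were all lower with NCS. The paired p53 word was in 2 of 287 higher genes (0.697%), 2 of 85 lower genes (2.35%), 8 of 2274 tested genes (0.352%) and 0.392% of all promoters. Of the 45 promoters of the p53 lists only 1 held it (2.22%), that of TRIAP1. It was in 0 of 10 promoters of the cytokines, 0 of 7 of the NF-kB list and 0 of 14 of the protease list. A match is a description of letters, not a binding site, and was not tested.

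CXCL8, the neutrophil chemoattractant interleukin 8, had 1383, 972 and 1340 normalised counts with NCS, 75.7, 244 and 85.9 with MD-224 and 171, 193 and 28.6 with DMSO. The lowest NCS library was far above the highest MD-224 library, and MD-224 and DMSO overlapped. The log2 difference was 3.37 (SE 0.79, adjusted p 0.00713), a 10.3-fold higher level with NCS. CXCL1, a second neutrophil chemokine, had 188, 283 and 262 with NCS, 29.8, 85.0 and 70.1 with MD-224 and 19.2 to 25.2 with DMSO. CXCL3, of the same family and close to CXCL1 in sequence, had 75.6, 100 and 102 with NCS and 6.88, 27.0 and 8.38 with MD-224. Its call was lost without NCS replicate 2 or 3 or MD-224 replicate 1 or 3, with adjusted p between 0.064 and 0.0825.

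IL32, a cytokine that raises the output of other inflammatory cytokines, gave the smallest p of the list. It had 3811, 5842 and 5885 normalised counts with NCS, 958, 1018 and 990 with MD-224 and 619, 511 and 653 with DMSO. The log2 difference between the treatments was 2.36 (SE 0.21, adjusted p 2.68e-06). IL1A, interleukin 1 alpha, had 467, 397 and 367 with NCS, 115, 122 and 85.9 with MD-224 and 48.1 to 97.1 with DMSO, a log2 difference of 1.93 (adjusted p 0.000263). The 3 NCS libraries lay above all MD-224 and DMSO libraries for both genes.

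TRAF1 and BIRC3 showed the largest differences of the NF-kB list. TRAF1, an adaptor of tumour necrosis factor receptors, had 319, 354 and 371 normalised counts with NCS, 88.3, 109 and 85.9 with MD-224 and 67.3 to 127 with DMSO. BIRC3, an inhibitor of apoptosis and ubiquitin ligase at those receptors, had 473, 448 and 419 with NCS, 73.4, 149 and 89.0 with MD-224 and 290, 206 and 75.7 with DMSO. NCS libraries stood above all MD-224 and DMSO libraries for both, with log2 differences from MD-224 of 1.87 (SE 0.25, adjusted p 0.000115) and 2.16 (SE 0.39, adjusted p 0.00142). CYLD, a deubiquitinase that dampens NF-kB, and NFKBIE, an inhibitor that holds NF-kB in the cytoplasm, differed less, by 0.73 (adjusted p 0.00369) and 0.75 (adjusted p 0.00399). Their MD-224 libraries overlapped the DMSO libraries.

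**Figure D3:**
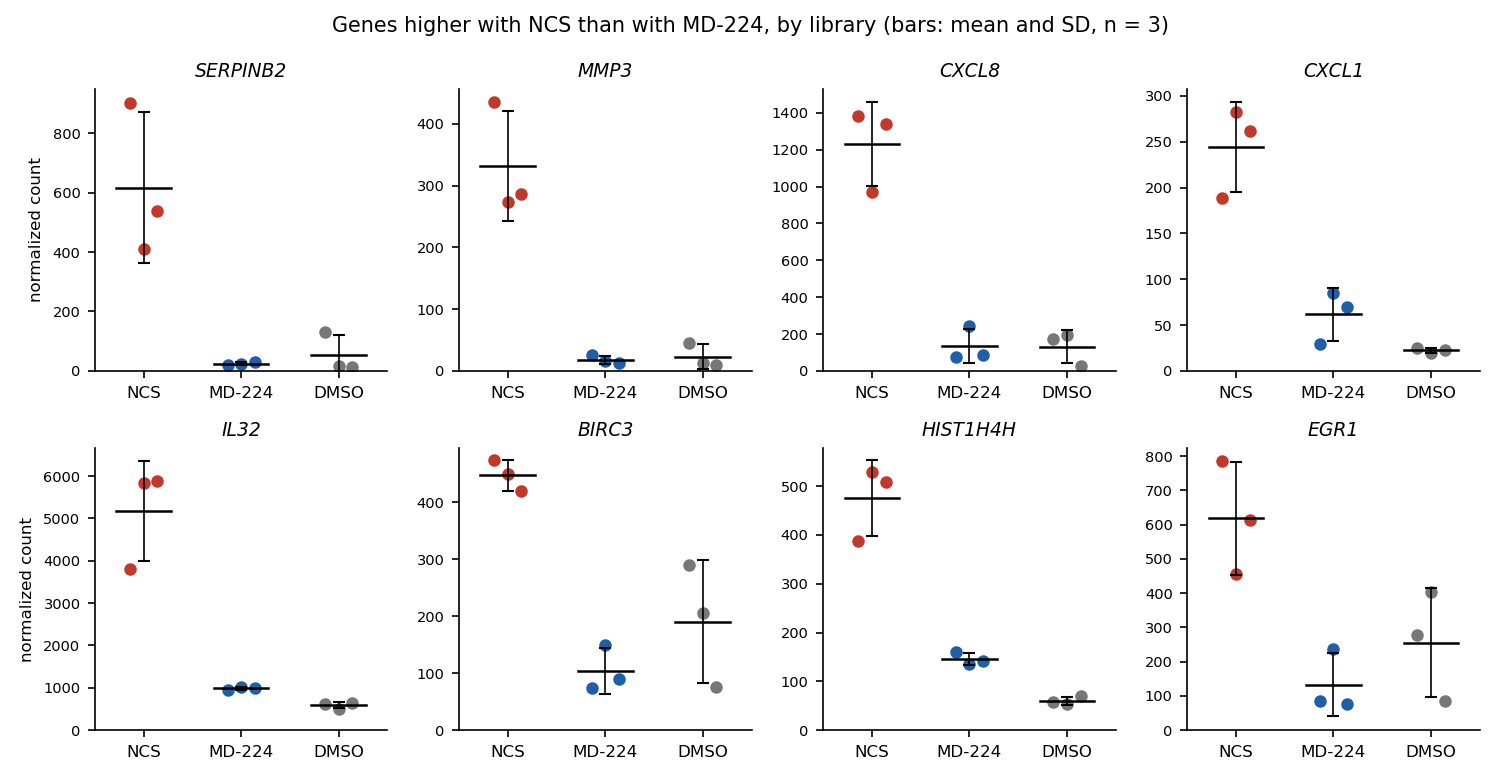
Normalised counts by library (linear axes from 0) in the NCS, MD-224 and DMSO groups for 8 genes higher with NCS than with MD-224. Points are libraries, and bars are the mean and SD of 3. In every panel the 3 NCS points lie above the 3 MD-224 points, while the MD-224 and DMSO points overlap for SERPINB2, MMP3, CXCL8, BIRC3 and EGR1.

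No interferon-stimulated gene was called. Of 6 measured 0 passed an adjusted p of 0.05 in limma, edgeR or DESeq2 in either direction, 1 passed an unadjusted p of 0.05 in limma, and the median log2 difference was 0.07. OAS2, which makes the activator of RNase L from double-stranded RNA, had 296, 609 and 449 normalised counts with NCS, 119, 300 and 150 with MD-224 and 55.8, 167 and 123 with DMSO. Its values follow the replicate number in all 3 groups, with replicate 2 highest. The log2 difference was 1.30 (SE 0.53, adjusted p 0.107) and passed with replicate number as a block (adjusted p 0.00296) and with the compared groups alone (0.0477). MX1, an antiviral GTPase, had 1212, 2737 and 2013 with NCS and 890, 1777 and 1118 with MD-224, with an adjusted p of 0.251, and of 0.0219 with the block. TLR3, a sensor of double-stranded RNA, had a log2 difference of -0.28 (adjusted p 0.43), and IFI16, a sensor of DNA, one of -0.09 (adjusted p 0.77). RNA polymerase III, named in the title of the series, was represented by 4 measured genes of its machinery, GTF3C6, BRF2, SNAPC5 and SNAPC1. Their log2 differences lay between -0.24 and 0.22, with 0 calls in limma, edgeR or DESeq2 (0 at an unadjusted p under 0.05). With TMM scaling and the block together 1 of the 4 was called lower with NCS.

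Secreted proteases, their inhibitors and matrix growth factors held some of the largest differences, with 11 of 21 measured members higher with NCS and 0 lower. The median log2 difference was 0.90, and leaving out 1 library gave 6 to 11 calls, the fewest without NCS replicate 1. Without replicate 3 of every group 4 were called higher. With TMM scaling, median-ratio scaling or the block on replicate number 1 member was called lower. SERPINB2, the plasminogen activator inhibitor of type 2, had 903, 411 and 538 normalised counts with NCS, 20.7, 24.5 and 29.3 with MD-224 and 131, 15.4 and 12.3 with DMSO. No MD-224 or DMSO library reached the NCS range, and the log2 difference from MD-224 was 4.52 (SE 0.74, adjusted p 0.000684), or 22.9-fold. MMP3, stromelysin 1, a metalloproteinase that cuts matrix proteins, had 435, 273 and 287 with NCS, 25.2, 15.5 and 12.6 with MD-224 and 46.0, 12.5 and 10.2 with DMSO. The log2 difference was 4.17 (SE 0.52, adjusted p 9.26e-05), with MD-224 and DMSO libraries overlapping.

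MMP10, stromelysin 2, had 54.0, 37.1 and 37.0 normalised counts with NCS, 4.59, 3.86 and 6.28 with MD-224 and 2.05 to 6.73 with DMSO, so the lower groups rest on few reads. SERPINE2, protease nexin 1, which inhibits thrombin and urokinase, was abundant, with 30333, 34375 and 32635 with NCS, 18864, 17737 and 21067 with MD-224 and 10265 to 13253 with DMSO. Its log2 difference was 0.76 (SE 0.13, adjusted p 0.00113), and both treatments lay above vehicle.

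Histone genes of the replication-dependent class were higher with NCS in 15 of 20 measured members and lower in 0. Their median log2 difference was 1.34. Leaving out 1 of the 6 libraries gave 13 to 15 higher members. Dropping a replicate number from every group gave 13 without replicate 1, 8 without replicate 2 and 5 without replicate 3. These mRNAs normally end in a stem-loop without a poly(A) tail, and the libraries were made from poly(A) RNA, so the values count their polyadenylated forms. Many copies are near-identical, and how reads were split between them is not stated. HIST1H4H, a histone H4 gene, had 388, 530 and 509 normalised counts with NCS, 159, 136 and 141 with MD-224 and 58.0, 52.9 and 69.6 with DMSO. HIST2H2BE, a histone H2B gene, had 1237, 2281 and 1641 with NCS, 462, 397 and 445 with MD-224 and 163 to 208 with DMSO. The 3 groups did not overlap for either, and NCS was 3.23-fold and 3.83-fold above MD-224. HIST1H2BK and HIST1H2AC, for histones H2B and H2A, differed 2.03-fold and 2.52-fold (adjusted p 2.04e-05 and 0.000306). HIST1H3E, for histone H3, was the only measured member with a negative log2 difference, -0.07 (adjusted p 0.91).

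Against DMSO 19 of the 20 histone genes were higher with NCS and 10 with MD-224, where 54.0% and 39.9% of all tested genes were higher. Genes of DNA replication and mitosis were on a list of 27, of which 0 were in the table, so no statement on cycling cells can be set beside the histones.

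Immediate early genes and feedback of the MAP kinase pathway had 4 of 14 members higher with NCS and 0 lower. EGR1, a zinc-finger factor induced within minutes of a stimulus, had 786, 456 and 615 normalised counts with NCS, 84.9, 238 and 75.4 with MD-224 and 277, 403 and 85.9 with DMSO. FOSB, a partner of JUN in AP-1, had 438, 421 and 353 with NCS, 233, 187 and 227 with MD-224 and 196 to 249 with DMSO. MD-224 and DMSO libraries overlapped for both. The count was 8 with replicate number as a block and 9 when the fit held the compared groups alone. DUSP2, a phosphatase of MAP kinases, had 114, 97.9 and 92.1 with NCS, 20.7, 26.4 and 16.8 with MD-224 and 85.4, 51.9 and 43.0 with DMSO. Here MD-224 was also below vehicle, by a log2 difference of -1.42 (adjusted p 0.0015). EGR3, a relative of EGR1, was higher with NCS by 2.65 (adjusted p 0.000478).

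**Figure D4:**
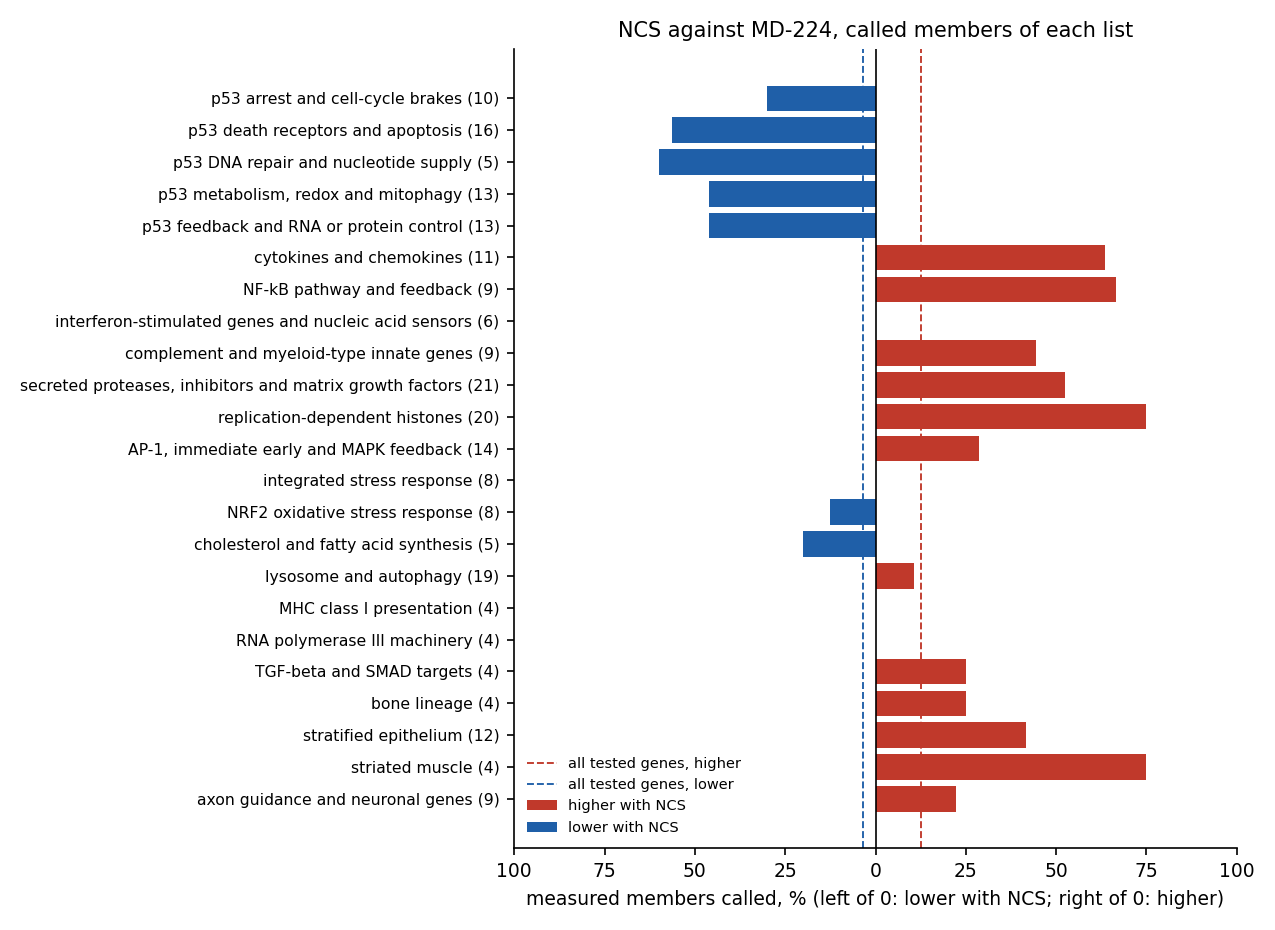
Share of measured members called higher (right of 0) or lower (left of 0) with NCS than with MD-224, in percent, for lists with at least 4 measured members (their number in parentheses). Dashed lines are the shares over all tested genes, 12.6% higher and 3.38% lower. The 5 p53 lists reach left only, and the cytokine, NF-kB, protease and histone lists reach right only.

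Genes of complement and of myeloid-type innate immunity had 4 of 9 members higher with NCS and 0 lower in every fit but the one without replicate 3 of every group, which called 3. C3, the central complement component, had 1200, 3792 and 1245 normalised counts with NCS, 122, 578 and 287 with MD-224 and 49.2, 232 and 65.5 with DMSO, with replicate 2 highest in each group. TREM1, a receptor that amplifies inflammatory signals in myeloid cells, had 259, 141 and 149 with NCS, 18.4, 32.2 and 24.1 with MD-224 and 3.84 to 4.38 with DMSO. ITGAM, the CD11b integrin chain of leukocytes, had 98.1, 141 and 115 with NCS and 6.88, 28.3 and 12.6 with MD-224. CD68, a lysosomal protein of macrophages that other cells also make, had 2062, 2025 and 2010 with NCS and 574 to 795 with MD-224. Of 7 haematopoietic markers 3 were listed, CD68, ITGAM and LAPTM5, and their sum was 2302 to 2498 with NCS, 783 to 1085 with MD-224 and 440 to 1111 with DMSO. PTPRC, CD14, ITGB2 and TYROBP were not among the listed genes, and the part of other cells in these values was not tested.

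SPINK1, ARC, VGF and XIRP1 were among the largest rises. SPINK1, a trypsin inhibitor of the pancreas, had 138, 171 and 216 normalised counts with NCS, 17.2, 5.15 and 14.7 with MD-224 and 103, 9.61 and 16.4 with DMSO. ARC, a neuronal immediate early gene, had 295, 226 and 342 with NCS, 25.2, 34.8 and 14.7 with MD-224 and 16.4 to 34.6 with DMSO, an 11.6-fold difference (adjusted p 6.1e-06). VGF, a neuropeptide precursor, had 210, 259 and 278 with NCS and 16.1, 34.1 and 20.9 with MD-224, and XIRP1, an actin-binding protein of striated muscle, had 76.5, 97.9 and 106 with NCS and 9.18, 12.2 and 4.19 with MD-224. NCS libraries were above all DMSO libraries for each of these genes, and XIRP1 was lower with MD-224 than with DMSO by a log2 difference of -1.26 (adjusted p 0.011).

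The lists of striated muscle and stratified epithelium also held called genes. MYPN, which anchors thin filaments, had 763, 757 and 843 normalised counts with NCS and 181, 88.9 and 137 with MD-224, and TTN, the titin spring of the sarcomere, had 171, 97.9 and 133 with NCS and 47.0, 23.2 and 22.0 with MD-224. Of 4 measured muscle genes 3 were higher with NCS. The summed muscle markers ACTN2 and TTN, 2 of 7 listed, were 156 to 239 with NCS, 31.4 to 57.4 with MD-224 and 45.0 to 98.0 with DMSO. COL17A1, a collagen of hemidesmosomes, had 80.5, 114 and 93.4 with NCS and 13.8, 12.9 and 5.23 with MD-224. Of 12 measured epithelial genes 5 were higher with NCS, while the epithelial markers KRT4 and KRT78, 2 of 8 listed, summed to 171 to 200 with NCS, 121 to 178 with MD-224 and 30.7 to 40.5 with DMSO. What other cell types add to these sums was not tested.

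Some large differences rest on uneven replicates or on shared sequence. ABCC9, a regulatory subunit of potassium channels, had 2670, 1443 and 2176 normalised counts with NCS, 551, 25.8 and 105 with MD-224 and 941, 57.7 and 125 with DMSO. Replicate 1 was the highest in each group. The log2 difference was 4.13 (SE 0.94, adjusted p 0.00643), 5.26 without MD-224 replicate 1 and 3.07 without MD-224 replicate 2. CGB8, a chorionic gonadotropin beta gene with near-identical neighbours, had 115 to 204 with NCS and 28.7, 3.86 and 10.5 with MD-224, and its log2 difference of 3.70 became 4.37 without MD-224 replicate 1 and 3.06 without MD-224 replicate 2. ANKRD26P1, a pseudogene whose reads may come from its parent, had 108 to 151 with NCS and 13.8, 3.86 and 2.09 with MD-224, and its difference of 4.39 became 5.03 without MD-224 replicate 1.

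GRM8, a metabotropic glutamate receptor, was lowest with MD-224. It had 29.1 to 44.2 normalised counts with NCS, 2.29, 5.15 and 6.28 with MD-224 and 42.7, 48.1 and 66.5 with DMSO. NCS libraries were 6.58-fold above MD-224, but MD-224 was the group that left the vehicle level, by a log2 difference of -3.31 (adjusted p 1.3e-06), against -0.59 for NCS (adjusted p 0.13).

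Many genes stood above vehicle with both treatments and were not called between them, 303 of them at 2-fold or more over DMSO in both. The 6 with the narrowest intervals bound the difference tightly. LRP1, a large endocytic receptor, had 43088, 43299 and 51684 normalised counts with NCS, 44349, 43263 and 44503 with MD-224 and 16275, 19046 and 20945 with DMSO, with a 95% interval of the log2 difference from -0.16 to 0.28. LRP10, a smaller relative of it, had an interval from -0.09 to 0.31, and STAT2, a transcription factor of interferon signalling, one from -0.20 to 0.27. For YPEL5, a subunit of a ubiquitin ligase complex, it ran from -0.08 to 0.37, and for CALCOCO1, an autophagy receptor, from -0.03 to 0.47. MVP, the major vault protein, had an interval from -0.39 to 0.03 with the deposited scaling, and with TMM it was called lower with NCS (adjusted p 0.0491). The integrated stress response and MHC class I lists had 0 calls among 8 and 4 measured genes in limma (0 and 1 at an unadjusted p under 0.05), edgeR and DESeq2. With replicate number as a block 2 of the 4 MHC class I genes were called higher with NCS, among them HLA-B, which presents peptides to T cells (adjusted p 0.014), and with TMM scaling and the block 0 were.

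The remaining lists had few calls. Of 19 genes of lysosome and autophagy 2 were higher with NCS and 0 lower, near the share over all genes. NPC1, the cholesterol exporter of lysosomes, had 13149, 10533 and 12556 normalised counts with NCS and 8737, 7697 and 8508 with MD-224. Of 4 bone genes 1 was higher, SPP1, the matrix phosphoprotein osteopontin, with 1921, 2002 and 1856 with NCS, 664, 903 and 446 with MD-224 and 1362, 590 and 344 with DMSO. SEMA3C, a secreted guidance cue, had 5645, 5706 and 5753 with NCS, 3276, 3155 and 3044 with MD-224 and 1640 to 2853 with DMSO, and it and GRM8 were the calls among 9 neuronal genes.

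The NRF2 list had 1 of 8 and the cholesterol list 1 of 5 members lower with NCS. AKR1B10, an aldo-keto reductase, had 59.9 to 97.6 normalised counts with NCS, 186, 111 and 170 with MD-224 and 33.8 to 66.3 with DMSO. TM7SF2, a sterol reductase, had 202, 205 and 212 with NCS, 361, 315 and 316 with MD-224 and 137 to 205 with DMSO. NCS libraries were below all MD-224 libraries for both, yet the call for AKR1B10 was lost without any 1 library other than MD-224 replicate 2 (adjusted p between 0.0507 and 0.172), and that for TM7SF2 without any 1 of the 6 (between 0.0516 and 0.0871). Of 4 TGF-beta targets 1 was higher with NCS and 0 lower. The 2 endothelial genes KDR and VWF and the lymphocyte gene CD79A were not called in limma, edgeR or DESeq2 (0 at an unadjusted p under 0.05).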

How the data were processed

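RNA of SJSA-1 cells was sequenced after poly(A) enrichment. Per the submitters' processing notes GRCh38 was the genome, and the tools were featureCounts 1.6.3, HISAT2 2.0.5.2 and DESeq2 2.11.40.6, with no role given. The deposited values are a signal, read counts that the authors divided by a size factor per library. Whole reads were recovered in all libraries (100% of values within 0.01 reads of a whole number) and used for edgeR 4.0.16 and DESeq2 1.42.0 as alternatives. The main test was limma 3.58.1 (R 4.3.3) on log2(value + 1), two-sided, with trended variance and 6 groups in 1 fit, so folds of low genes are understated. A gene was tested where 3 or more libraries reached 10.

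The members, gene lists and naming rule were chosen with earlier results of these data known. Named genes are MDM2, CDKN1A, the 14 largest changes each way (mean of at least 50, no overlap), up to 4 members per list with the smallest p, and 6 genes alike. Same-numbered NCS and MD-224 libraries had correlated deviations (0.314, 0.392 and 0.130 across genes). The main fit was unpaired, since no label says what the number marks. The fit with replicate number as a block is an alternative to it. Of the gene names 2795 matched RefSeq symbols, 203 synonyms and 76 none. Intervals cover the spread between libraries. Figures used matplotlib 3.10.9 in Python 3.11.15. A few genes named by the rule are not reported here.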

Additional observations from a re-analysis of the deposited data

How the results depend on the processing

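No gene called between NCS and MD-224 reversed under any alternative run. With the replicate block, which pairs libraries of the same number, the counts were 589 higher and 190 lower, against 388 and 104 in the unpaired main fit. TMM scaling gave 301 higher and 227 lower genes, and median-ratio scaling 275 and 269. TMM with the block, chosen after seeing the data, gave 444 and 370. Leaving out 1 library, or 1 replicate number from every group, gave 67 to 361 higher and 20 to 103 lower, the fewest without replicate 3 of every group (67 and 20). Single libraries that moved a count by more than 1.5 times were NCS replicate 1 (252 and 64), NCS replicate 3 (244 and 60) and, in 1 direction, MD-224 replicate 3 (239 higher) and MD-224 replicate 2 (67 lower). Pseudocount 5, no filter, a mean of at least 50, the compared groups alone, edgeR (353 and 108) and DESeq2 (445 and 147) stayed within 1.5 times of the main counts.

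Against DMSO the counts moved with the scaling. NCS was higher in 1659 genes and lower in 40 as deposited, in 456 and 467 with TMM, 450 and 483 with median-ratio scaling, and 628 and 614 with TMM and the block. MD-224 was higher in 1225 and lower in 86 as deposited, in 327 and 357 with TMM, 362 and 324 with median-ratio scaling, 493 and 536 with TMM and the block, and 749 and 46 with the compared groups alone. Leave-outs gave 889 to 1568 higher and 13 to 44 lower for NCS, and 590 to 1127 higher and 29 to 100 lower for MD-224. Both rescalings recentre on genes that the table selected as above DMSO in another group. The part of that selection, or of any other cause, in these changes was not tested. Counts near 10 limit the least abundant genes, whose median standard error of the log2 difference was 0.46, against 0.14 for the most abundant.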

Other observations

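Leading genes of both directions were also measured in cells given NCS and then MD-224. MDM2 averaged 832815 ± 132103 normalised counts there (SD, n = 3), against 182308 ± 5967 with NCS alone and 407832 ± 63782 with MD-224 alone. SULF2 averaged 17553 ± 6748 with both agents, 4651 ± 327 with NCS and 14804 ± 666 with MD-224. SERPINB2 averaged 1677 ± 1501 with both, 617 ± 255 with NCS and 24.8 ± 4.3 with MD-224. Its libraries given both agents overlapped those given NCS alone, and all of them were above every MD-224 library. BAX had 8674 ± 900.5 with both, between 5621 ± 395 with NCS and 10805 ± 857 with MD-224. These differences were not tested.

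GDF15, a stress-induced cytokine of the TGF-beta family, was chosen after its values were seen. It had 40968, 29815 and 32252 normalised counts with NCS, 36540, 51058 and 31947 with MD-224 and 4563, 22047 and 3940 with DMSO. DMSO replicate 2 stood far above the other DMSO libraries, and no NCS or MD-224 library overlapped any DMSO library.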
